A study of Mus musculus with 4 samples.

Results

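The genes that set the passage through G1 were followed in mouse embryonic stem cells (ESCs) taken to the cardiac lineage. The set was chosen by name, as the rows of the expression table whose gene name is 1 of 10 listed symbols, and all 10 were found among the 24637 genes. It holds 5 CDK inhibitors, *Cdkn1a*, *Cdkn1b*, *Cdkn2a*, *Cdkn2b* and *Cdkn2c*, and 5 cyclins, *Ccnd1*, *Ccnd2*, *Ccnd3*, *Ccne1* and *Ccne2*. Polyadenylated RNA was sequenced in 4 libraries, 2 with the genotype Taf4+/+ (WT) and 2 with the genotype Taf4-/- (titled *Taf4a*-/-). The ESCs of both genotypes came from blastocysts of heterozygous *Taf4a*+/- crosses, were kept on inactivated embryonic fibroblast feeders with LIF, grew for 5 days as embryoid bodies and then spent 9 days on gelatin-coated plates. *Taf4a* encodes Taf4, a subunit of the general transcription factor TFIID, and the null allele lacks internal coding exons. The study established 2 WT and 2 null lines, and its methods describe 2 biological replicates drawn from independent lines, WT and null. The labels do not say which line gave which library. The p-values below set the genotype difference against the variation between these libraries, in a fit that also borrows variance from other genes.

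In G1, D cyclins bind CDK4 and CDK6 and begin to phosphorylate the retinoblastoma protein Rb and its relatives, which releases E2F transcription factors. Cyclin E with CDK2 then completes that step and brings the cell into S phase. The inhibitors fall into a pair of families. The INK4 proteins, from *Cdkn2a* (p16Ink4a), *Cdkn2b* (p15Ink4b), *Cdkn2c* (p18Ink4c) and *Cdkn2d* (p19Ink4d), bind CDK4 and CDK6 and keep D cyclins off. The Cip/Kip proteins, from *Cdkn1a* (p21), *Cdkn1b* (p27) and *Cdkn1c* (p57), bind complete cyclin-CDK complexes. *Cdkn2a* also encodes p19Arf in another reading frame, which holds back Mdm2, the ligase that marks p53 for destruction, and *Cdkn1a* is a classical p53 target. ESCs cycle with a short G1, and G1 lengthens as they differentiate.

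The libraries had between 21732746 and 27733034 reads on genes. The targeted gene *Taf4a* was at 889 and 678.5 normalized counts in WT but at 1722 and 1799 where the label is *Taf4a*-/-. Its count over the whole gene was thus higher there (log2 fold change 1.18, adjusted p = 0.00569 from limma). The allele lacks internal exons, and such a count does not separate single exons. By immunostaining, the paper found no Taf4 protein in the null ESCs. Genotypes are given throughout as labelled. Sex-linked RNA set libraries of the same genotype apart. *Xist*, chosen after its values were seen, had 6.14, 7.27, 217 and 6470.0 normalized counts in that order, and *Eif2s3y*, on the Y chromosome and likewise chosen, had 1688, 0, 309 and 0. Markers of other cell types moved with genotype. Of 10 cardiomyocyte markers 10 were lower in the libraries labelled *Taf4a*-/-, where their summed normalized counts were 4977 to 5352 against 25316 to 28523 in WT. Of 10 fibroblast markers 8 were lower (51150 to 64664 against 437413 to 607231). Of 10 macrophage markers 10 were lower (199.7 to 226.7 against 9977 to 11660, with *C1qa* at 0 in both), and of 10 endoderm and liver markers 10 were lower (1059.5 to 1719 against 80575 to 95506, with *Alb* at 0 in both). Of 10 pluripotency markers 8 were higher (17272 to 19429 against 2935 to 5847). The part of these cell types in the results on the G1 genes was not tested, and in bulk RNA fewer cells of a type and less RNA per cell cannot be told apart. WT replicates were unlike too, replicate 2 having 0.502 times the summed pluripotency markers and 1.39 times the summed fibroblast markers of replicate 1.

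Of the 10 G1 genes, 5 were lower and 0 higher in the libraries labelled *Taf4a*-/- at an adjusted p-value under 0.05 (limma, Benjamini-Hochberg). Among all 16926 genes tested, 17.3% were lower and 11.3% higher under the same rule. With quantile normalization, which moved the median of all genes from -0.01 to 0.11, the calls over all genes were 2448 lower and 2676 higher, and 4 of the 10 were lower. With no variance trend 1 of the 10, *Cdkn2c*, was lower, when 10.3% of all genes were. In the fit used here the lower genes were 4 of the 5 inhibitors, *Cdkn1b*, *Cdkn2a*, *Cdkn2b* and *Cdkn2c*, and 1 of the 5 cyclins, *Ccnd2*. The median log2 fold change of the 10 was -0.42, beside -0.01 over all genes tested. All 10 passed the filter of a mean of at least 10 normalized counts, and the fewest reads behind any value were 27, for *Cdkn2c*.

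**Figure D1:**
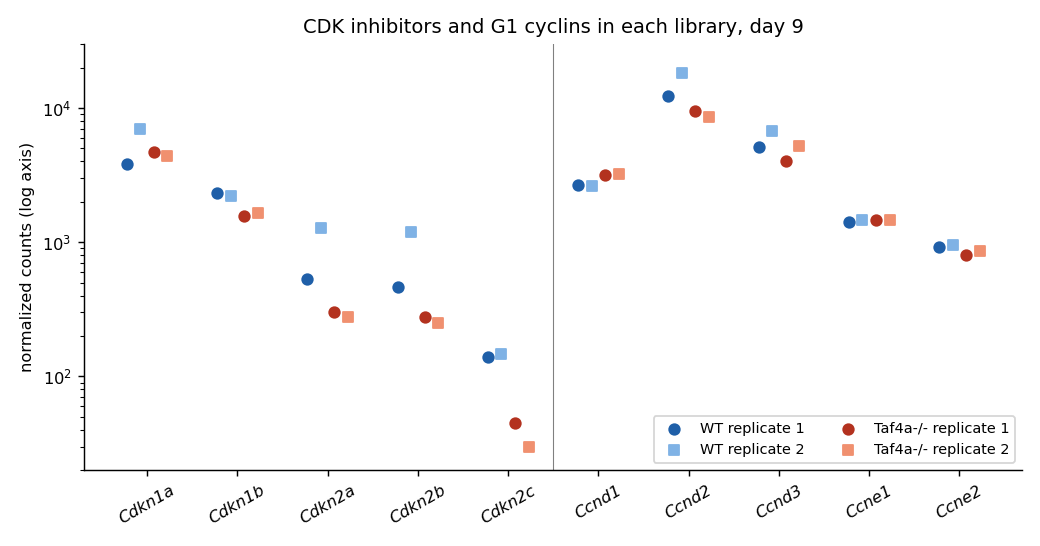
Normalized counts of each inhibitor (left of the line) and each cyclin (right) in the 4 libraries, on a log axis, with circles for replicate 1 and squares for replicate 2, blue for WT and red for the libraries labelled *Taf4a*-/-. The red points of *Cdkn1b*, *Cdkn2a*, *Cdkn2b*, *Cdkn2c* and *Ccnd2* lie under both blue points, and WT replicate 2 stands high for *Cdkn2a* and *Cdkn2b*, at 1274 and 1196.

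The INK4 genes *Cdkn2a* and *Cdkn2b* are neighbours on chromosome 4. On NCBIM37, *Cdkn2a* (ENSMUSG00000044303) spans chr4:88920377-88940557 and *Cdkn2b* (ENSMUSG00000073802) spans chr4:88952198-88956941, both on the minus strand and 11.6 kb apart. *Cdkn2a* has 2 main start regions that lie 12.5 kb apart. The upstream start, near 88940523, leads to the transcripts of p19Arf, and the start at 88928096 to that of p16Ink4a. Of the 850 nt of the p16Ink4a transcript, 643 nt (75.6%) are also exon of the Arf transcripts, so a count per gene cannot separate these products. The 250 bases before each start are shown because all 3 promoters lie in the stretch whose genes fell together. They are from RefSeq (table build GRCm38.p6), each matched NCBIM37 exactly once, and capitals mark matches to the E2F motif TTTNNCGC, the GC box GGGCGG and the cyclic AMP response element TGACGTCA on either strand.
Cdkn2a, p19Arf start, chr4:88940524-88940773, minus strand: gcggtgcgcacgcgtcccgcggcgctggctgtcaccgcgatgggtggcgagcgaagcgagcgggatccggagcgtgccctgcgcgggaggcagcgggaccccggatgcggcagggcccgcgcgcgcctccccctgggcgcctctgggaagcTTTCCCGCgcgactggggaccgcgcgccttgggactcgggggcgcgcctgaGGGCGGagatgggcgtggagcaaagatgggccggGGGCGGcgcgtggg
Cdkn2a, p16Ink4a start, chr4:88928097-88928346, minus strand: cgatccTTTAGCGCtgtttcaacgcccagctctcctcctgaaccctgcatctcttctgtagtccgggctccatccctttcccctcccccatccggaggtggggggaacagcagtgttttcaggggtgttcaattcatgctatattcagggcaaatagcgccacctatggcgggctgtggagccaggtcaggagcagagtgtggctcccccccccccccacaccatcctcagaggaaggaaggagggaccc
Cdkn2b, chr4:88956942-88957191, minus strand: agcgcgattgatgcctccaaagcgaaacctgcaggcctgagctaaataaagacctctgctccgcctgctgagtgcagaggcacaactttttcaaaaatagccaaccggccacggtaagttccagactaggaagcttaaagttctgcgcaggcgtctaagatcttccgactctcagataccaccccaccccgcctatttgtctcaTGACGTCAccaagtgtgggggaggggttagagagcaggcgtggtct
The 3 sequences differ in composition. G and C make up 78.4% of the bases before the Arf start, which hold 40 CpG dinucleotides, 60.0% before the Ink4a start with 7 CpG, and 53.6% before *Cdkn2b* with 12. The Arf start had 1 E2F match and 2 GC boxes, the Ink4a start 1 E2F match, and *Cdkn2b* 1 cyclic AMP response element. Another annotated Arf transcript starts at 88940557, inside the stretch shown for the Arf start. The GC box nearest 88940523 therefore lies within the exon of that transcript. Over the 32851 upstream sequences of the same length, 4.28% held the E2F motif, 32.7% the GC box, 1.55% the cyclic AMP response element and 12.4% the TATA box TATAAA. None of the 11 upstream sequences found for 7 of the 10 genes held TATAAA, and no 2 of the matches overlapped. *Ccnd1*, *Ccnd2* and *Ccne2* had no entry. A match describes letters in this window and no more.

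WT replicates 1 and 2 held 528 and 1274 normalized counts of *Cdkn2a*, against 302 and 276 in replicates 1 and 2 of the libraries labelled *Taf4a*-/-. WT replicate 2 stood well above the rest, and both WT libraries were above both others. On the log2(normalized counts + 1) scale used for all fold changes here, *Cdkn2a* fell by 1.50 (standard error 0.39, adjusted p = 0.0355 from limma), which is 2.83-fold with a 95% confidence interval of 1.46 to 5.47. *Cdkn2b* had 461 and 1196 normalized counts in WT and 278 and 249.95 in the others. Its pattern over the libraries was that of *Cdkn2a*, with WT replicate 2 far above replicate 1 and no overlap between genotypes. It fell by 1.49 on the log2 scale (standard error 0.42, adjusted p = 0.0442 from limma), 2.81-fold with an interval of 1.38 to 5.71. The ratio of *Cdkn2a* to *Cdkn2b* normalized counts, not divided by length, was 1.14 and 1.07 in WT against 1.09 and 1.11, so it held within a narrow range while both genes varied.

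The size of both falls rested on WT replicate 2. Without it the log2 fold changes were -0.87 for *Cdkn2a* (adjusted p = 0.0552 from limma) and -0.80 for *Cdkn2b* (adjusted p = 0.0657), and neither passed the threshold. Without WT replicate 1 they were -2.14 and -2.18. *Cdkn2b* also missed the threshold without the library labelled *Taf4a*-/- replicate 2 (-1.41, adjusted p = 0.0570 from limma) and with quantile normalization (-1.30, adjusted p = 0.0614), and voom on the recovered reads called neither gene (adjusted p = 0.0536 and 0.0680). Summed fibroblast markers in WT replicate 2 were 1.39 times those of WT replicate 1, and 11.1% of the WT level in the libraries labelled *Taf4a*-/-. Summed macrophage (1.17 times, 1.97%) and cardiomyocyte markers (1.13 times, 19.2%) ran the same way, and summed pluripotency markers the opposite way (0.502 times, 418%). Summed endoderm and liver markers were lower in both comparisons (0.844 times, 1.58%). Between WT replicates 1 and 2, single markers of every list ran against their sum. Examples are *Nkx2-5* (302 and 198 normalized counts), *Pdgfra* (7098 and 5451), *Emr1* (1448 and 1403), *Klf4* (632 and 1133) and *Alb* (799 and 1796). The part of any of these cell types in these values was not tested.

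*Mtap*, a metabolic gene and the nearest protein-coding neighbour of *Cdkn2a* on the other side, 93.4 kb away, had 2483 and 2508 normalized counts in WT and 2477 and 2580.2 in the others. Its log2 fold change was 0.019 (95% confidence interval -0.25 to 0.28, adjusted p = 0.913 from limma), with the genotypes overlapping. *Dmrta1*, 389.2 kb beyond *Cdkn2b*, had few reads, with 27.2 and 13.5 normalized counts in WT and 8.81 and 7.74 in the others (log2 fold change -1.13, adjusted p = 0.156). Along this stretch, then, the neighbours on either side did not pass the test.

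*Cdkn2c* (ENSMUSG00000028551, chr4:109333481-109339794, minus strand), 20.4 Mb from *Cdkn2b*, had the largest fold change of the 10 genes and their lowest level per kb of exon. It had 139 and 147 normalized counts in WT, and 45.0 and 29.9 in the libraries labelled *Taf4a*-/-. The WT libraries were close to each other and far above both others. It fell by 1.93 on the log2 scale (standard error 0.32, adjusted p = 0.00964 from limma), 3.82-fold with a 95% confidence interval of 2.24 to 6.52. It was the 1 gene of the 10 that was called with each of the 8 other ways of fitting all 4 libraries, and with 1 library left out it was not called without WT replicate 2 (log2 fold change -1.90, adjusted p = 0.0654). *Faf1*, its neighbour 9.4 kb away on the other strand, had a log2 fold change of 0.048 (adjusted p = 0.801).

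The remaining INK4 gene, *Cdkn2d*, had a low level in each library, with 30.7 and 22.9 normalized counts in WT and 27.4 and 26.5 in the others. Its log2 fold change was 0.025 with a 95% confidence interval of -0.91 to 0.96, so a change of nearly that size in either direction was not detectable at this depth. Per kb of exon, *Cdkn2a* made up 52.6%, 53.9%, 52.1% and 52.8% of the normalized counts of the 4 INK4 genes, in the order WT replicate 1, WT replicate 2 and then the libraries labelled *Taf4a*-/- replicate 1 and replicate 2. *Cdkn2b* made up 38.6%, 42.5%, 40.2% and 40.1% in the same order. The shares of this pair varied little, while the INK4 sum per kb ran from 448 to 2019.8. *Cdkn2c* held 6.05%, 2.70%, 3.38% and 2.48%, with WT replicate 1 highest. *Cdkn2d* held 2.81% and 0.890% in WT against 4.34% and 4.66%, without overlap. Its own counts differed little between genotypes, so these shares mostly followed the INK4 sum, and they rest on 22 to 35 reads per library. With 2 libraries against 2, an exact two-sided permutation test cannot give a p below 0.333, so no share was tested.

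**Figure D2:**
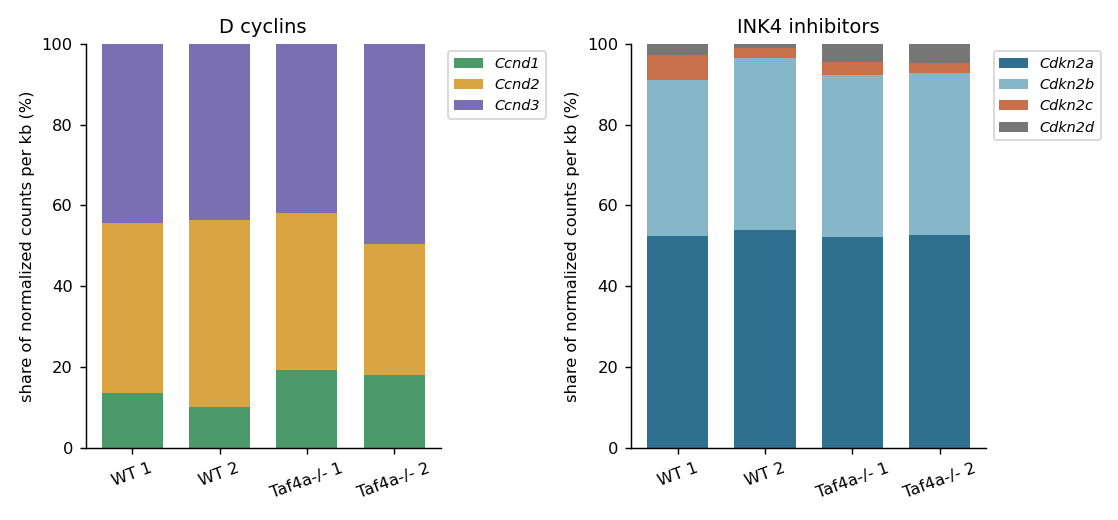
Stacked bars of the share of normalized counts per kb of exon (%) taken by each D cyclin (left) and each INK4 gene (right) in each of the 4 libraries. *Cdkn2a* sits between 52.1% and 53.9% of INK4 counts in every library, and *Ccnd1* takes 18.0% and 19.2% of D cyclin counts in the libraries labelled *Taf4a*-/- against 10.1% and 13.6% in WT.

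Of the Cip/Kip genes, *Cdkn1b* was lower and *Cdkn1a* was not called. *Cdkn1b* (ENSMUSG00000003031, chr6:134870419-134875531, plus strand) had 2329 and 2203 normalized counts in WT, and 1579 and 1645 in the libraries labelled *Taf4a*-/-. Libraries of the same genotype lay close together and the genotypes did not overlap. It fell by 0.49 on the log2 scale (standard error 0.11, adjusted p = 0.0252 from limma), 1.41-fold with a 95% confidence interval of 1.16 to 1.70. The estimate hardly moved when 1 library was left out (-0.53 to -0.45), though the call was lost without either of the libraries labelled *Taf4a*-/- (adjusted p = 0.1996 without replicate 1 and 0.146 without replicate 2, log2 fold changes -0.46 and -0.52).

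For *Cdkn1a* (ENSMUSG00000023067, chr17:29227924-29237667, plus strand), the WT values were 3835 and 6966 normalized counts for replicates 1 and 2, while the libraries labelled *Taf4a*-/- gave 4720.3 and 4425. Both of the latter lay between the WT libraries. The log2 fold change was -0.18 (standard error 0.27, 95% confidence interval -0.83 to 0.48, adjusted p = 0.647 from limma), and its direction rested on a single WT library. Without WT replicate 1 it was -0.61 and passed the threshold (adjusted p = 0.0225), and without WT replicate 2 it was 0.25 (adjusted p = 0.135).

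*Cdkn1c*, the other Cip/Kip gene and an imprinted growth inhibitor, had 5683 and 15425 normalized counts in WT, and 14037 and 14701 in the others. WT replicate 1 stood alone below the other libraries. The log2 fold change was 0.62 (standard error 0.43, 95% confidence interval -0.42 to 1.66, adjusted p = 0.313 from limma). It was 1.34 without WT replicate 2 (adjusted p = 0.0345) and -0.10 without WT replicate 1 (adjusted p = 0.432).

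**Figure D3:**
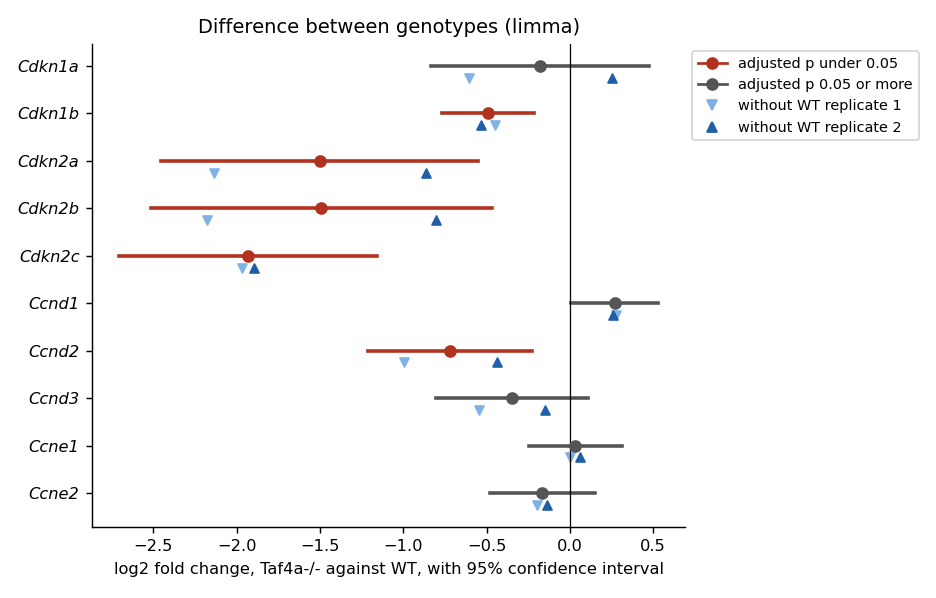
Log2 fold change of each gene, libraries labelled *Taf4a*-/- against WT, as a point with its 95% confidence interval from limma, red where the adjusted p-value was under 0.05, and as triangles the estimates without WT replicate 1 or 2. The triangles of *Cdkn1a* lie on either side of 0 at -0.61 and 0.25, and those of *Cdkn2a* and *Cdkn2b* spread from -2.18 to -0.80.

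Among the D cyclins, *Ccnd2* fell, *Ccnd1* had a value above 0 that did not pass the test, and *Ccnd3* overlapped between genotypes. *Ccnd2* (ENSMUSG00000000184, chr6:127075797-127101066, minus strand) had 12288 and 18095 normalized counts in WT, and 9550.3 and 8597 in the libraries labelled *Taf4a*-/-. Each WT library was above both others, and WT replicate 2 was the highest. *Ccnd2* fell by 0.72 on the log2 scale (standard error 0.20, adjusted p = 0.0442 from limma), 1.65-fold. The call was held only when WT replicate 1 was the library left out (log2 fold change -0.998). It was lost without WT replicate 2 (-0.44, adjusted p = 0.0764), without the libraries labelled *Taf4a*-/- replicate 1 (-0.79, adjusted p = 0.105) or replicate 2 (-0.64, adjusted p = 0.187), and with the replicate number as a block (adjusted p = 0.0532).

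*Ccnd1* (ENSMUSG00000070348, chr7:152115836-152125774, minus strand) had 2662 and 2636 normalized counts in WT, and 3151 and 3226 in the libraries labelled *Taf4a*-/-. The genotypes did not overlap, and libraries of the same genotype were close. The log2 fold change of 0.27 (standard error 0.11, 95% confidence interval 0.0061 to 0.53) did not pass after adjustment over all genes (adjusted p = 0.111 from limma). At its 3′ end 818 nt, 21.3% of its exon sequence, are also exon of *Oraov1* on the other strand, and the library kit keeps no strand, so reads there cannot be assigned. *Oraov1* had a log2 fold change of 0.25 (adjusted p = 0.272).

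*Ccnd3* (ENSMUSG00000034165, chr17:47642000-47736632, plus strand) had 5105 and 6698 normalized counts in WT, and 4041 and 5226 in the libraries labelled *Taf4a*-/-. The library labelled *Taf4a*-/- replicate 2 lay above WT replicate 1, so the genotypes overlapped. The log2 fold change was -0.35 (standard error 0.19, 95% confidence interval -0.80 to 0.11, adjusted p = 0.209 from limma). An annotated copy on another chromosome, *Ccnd3-ps* (chr4:138901215-138902095, chosen after its values were seen), is 96.25% identical to the *Ccnd3* transcript over 881 nt, and 17.2% of its 50-nt words also occur in *Ccnd3*. It had 704.9, 887, 577 and 708 normalized counts, and the ratio of *Ccnd3* to its copy ran only from 7.01 to 7.55 over the libraries. With both counted together the log2 fold change was -0.34 (adjusted p = 0.210 from limma). *Ccnd3* dominates that sum, so this value could hardly have differed from that of *Ccnd3* alone. The effect of the copy on the reads counted for *Ccnd3* was not tested. A further 353 nt (15.7% of *Ccnd3* exon) are shared with *Bysl* on the other strand, which rose by 0.74 on the log2 scale (adjusted p = 0.0296 from limma). *Bysl* was not called without WT replicate 2 (0.49, adjusted p = 0.0556) or without the libraries labelled *Taf4a*-/- replicate 1 (0.102) or replicate 2 (0.0696).

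Per kb of exon, *Ccnd1* made up 13.6% and 10.1% of D cyclin normalized counts in WT, and 19.2% and 18.0% in the libraries labelled *Taf4a*-/-. *Ccnd2* made up 42.2% and 46.5% in WT against 39.1% and 32.3%. For these cyclins the shares did not overlap between genotypes. *Ccnd3* made up 44.3% and 43.5% in WT against 41.8% and 49.7%, and overlapped. The ratio of *Ccnd1* to *Ccnd2* normalized counts, not divided by length, was 0.217 and 0.146 in WT against 0.330 and 0.375. The summed D cyclin level per kb was 5113 and 6832 in WT, and 4289 and 4667 in the others.

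Of the E cyclins, *Ccne1* was nearly level between genotypes and *Ccne2* was not called. *Ccne1* (ENSMUSG00000002068, chr7:38883003-38892553, minus strand) had 1407 and 1467 normalized counts in WT, and 1475 and 1463 in the libraries labelled *Taf4a*-/-. These levels gave a log2 fold change of 0.032 with a 95% confidence interval of -0.25 to 0.31 (adjusted p = 0.853 from limma), so changes larger than 1.24-fold lay outside that interval. *Ccne2* (ENSMUSG00000028212, chr4:11118498-11131926, plus strand) had 914 and 953 in WT, and 797 and 867 in the others. The genotypes of *Ccne2* did not overlap, but the difference did not pass the test, at -0.17 on the log2 scale (standard error 0.13, 95% confidence interval -0.48 to 0.15, adjusted p = 0.367 from limma). Of *Ccne2* exon, 609 nt (17.4%) are shared with *Ints8* on the other strand, which rose by 0.52 on the log2 scale (adjusted p = 0.0242 from limma). *Ints8* was not called without WT replicate 2 (adjusted p = 0.0652) or without the libraries labelled *Taf4a*-/- replicate 1 (0.102) or replicate 2 (0.212). Neither E cyclin was called in any of the other fits, including those without 1 library.

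Ordered by level per kb of exon, *Ccnd2*, *Ccnd3* and *Cdkn1a* led in WT, with means of 2665 ± 720.3, 2617 ± 499 and 2429 ± 996 normalized counts per kb (SD, n = 2 each), and their ranges overlapped. *Cdkn2a* (769.94 ± 451), *Ccnd1* (691 ± 4.73), *Cdkn2b* (595 ± 373) and *Ccne1* (539.87 ± 15.9) followed, each overlapping the next. *Cdkn1b* (498 ± 19.7), *Ccne2* (267 ± 7.95) and *Cdkn2c* (53.2 ± 1.87) came last, and of these the range of *Cdkn1b* lay inside those of *Cdkn2a* and *Cdkn2b*. In the libraries labelled *Taf4a*-/-, *Cdkn1a* (2057 ± 93.9) and *Ccnd3* (2055 ± 372) overlapped at the top, above *Ccnd2* (1592 ± 118), *Ccnd1* (831 ± 13.8), *Ccne1* (552 ± 3.19) and *Cdkn1b* (354 ± 10.2). *Cdkn2a* (247 ± 15.7) came next and overlapped *Ccne2* (238 ± 14.2), followed by *Cdkn2b* (189.5 ± 14.2) and *Cdkn2c* (13.9 ± 3.99). By mean, *Cdkn2a* had place 4 of 10 in WT and place 7 in the libraries labelled *Taf4a*-/-, but the WT place rested on replicate 2. In WT replicate 1 *Cdkn2a* (451 per kb) already lay below *Ccnd1* (694), *Ccne1* (529) and *Cdkn1b* (512), and in WT replicate 2 (1089) above them.

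In several of these genes the WT libraries lay far apart. The log2 difference between WT replicates 2 and 1 was 1.27 for *Cdkn2a*, 1.37 for *Cdkn2b*, 0.86 for *Cdkn1a* and 0.56 for *Ccnd2*, beside 1.50, 1.49, 0.18 and 0.72 for the size of the difference between genotypes; for *Ccnd3* the values were 0.39 and 0.35. Of all genes tested, 3.88%, 3.14%, 9.58% and 20.5% differed between the WT libraries by at least as much. For *Cdkn1b* (-0.081), *Cdkn2c* (0.071), *Ccnd1* (-0.014), *Ccne1* (0.060) and *Ccne2* (0.061) the WT libraries were nearly level. The falls of *Cdkn1b* and *Cdkn2c* therefore exceeded the spread within WT by far, and those of *Cdkn2a* and *Cdkn2b* were only a little larger than it. Between replicates 2 and 1 of the libraries labelled *Taf4a*-/-, *Cdkn2c* differed by -0.58, the largest in size of the 10 genes. For *Cdkn1b* that difference was 0.059.

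**Figure D4:**
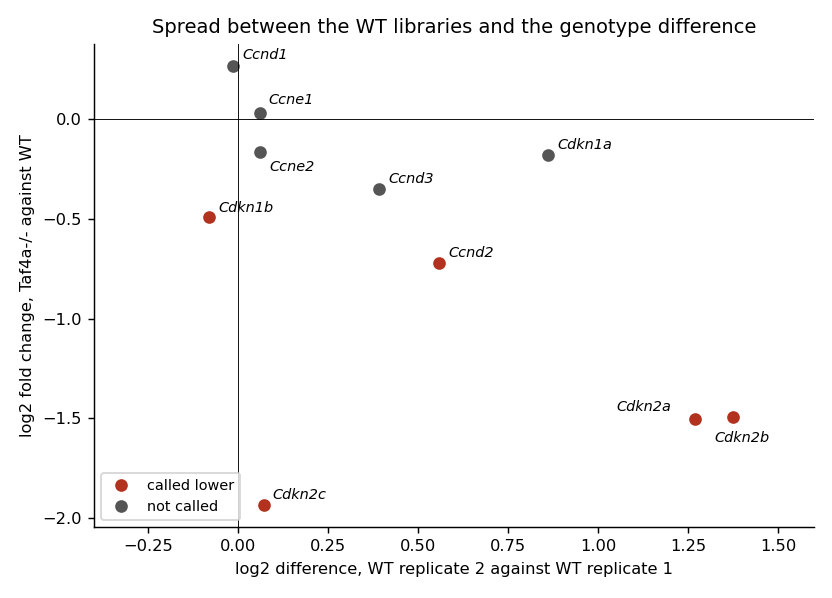
Log2 difference between the WT libraries (horizontal) against the log2 fold change between genotypes (vertical) for each of the 10 genes, red where called lower. *Cdkn2a* and *Cdkn2b* lie at the right, with WT differences of 1.27 and 1.37, while *Cdkn2c* and *Cdkn1b* lie near 0 on the horizontal axis.

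The partners and targets of these genes were followed as lists. Of 28 other G1 regulators, 1 was higher (3.57%, beside 11.3% of all genes tested) and 1 lower (3.57%, beside 17.3%). Their median log2 fold change was 0.11. *Rbl2*, which encodes the Rb relative p130 of resting cells, had 743 and 887 normalized counts in WT, and 340 and 386 in the libraries labelled *Taf4a*-/-. It fell by 1.16 on the log2 scale (standard error 0.17, adjusted p = 0.00641 from limma) and was called with each library left out in turn. *Fbxw7*, the ubiquitin ligase subunit that marks cyclin E for destruction, had 671 and 682 against 997 and 1012, with no overlap, and rose by 0.57 (standard error 0.13, adjusted p = 0.0226). It was called only when WT replicate 1 was the library left out (adjusted p = 0.0517 without WT replicate 2, 0.142 and 0.155 without the libraries labelled *Taf4a*-/- replicates 1 and 2). The kinases *Cdk2*, *Cdk4* and *Cdk6* had log2 fold changes of 0.12, 0.097 and 0.064 (adjusted p = 0.463, 0.626 and 0.824 from limma). *Rb1* had -0.093 (adjusted p = 0.732) and *Rbl1*, for p107, 0.36 (adjusted p = 0.132, and 0.0382 without WT replicate 1).

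The list of S phase genes, which E2F activates as cells leave G1, leaned above 0 as a whole but gave a single call. Of 27 genes, 1 was higher (3.70%, beside 11.3% of all genes tested) and 0 lower, and their median log2 fold change was 0.36, and 23 of the 27 values were above 0. *Orc1*, a subunit of the origin recognition complex, had 567 and 389 normalized counts in WT against 882 and 953, and rose by 0.96 (standard error 0.21, adjusted p = 0.0209 from limma; 0.0637 without the library labelled *Taf4a*-/- replicate 2). In WT replicate 2 all 27 were below WT replicate 1, with a median log2 difference of -0.53. Without WT replicate 1, 17 of the 27 were called higher, with a median of 0.66, when 14.6% of all genes were. Without WT replicate 2 it was 1, with a median of 0.12, when 4.40% of all genes were. Of 22 genes of G2 and mitosis, 1 was higher (4.55%, beside 11.3% of all genes tested) and 1 lower (4.55%, beside 17.3%). Their median was 0.077. *Cdk1*, the kinase of mitotic entry, had 4335 and 3928 normalized counts in WT against 2518 and 2729.6 and fell by 0.65 (standard error 0.12, adjusted p = 0.0131 from limma). *Cenpf*, a kinetochore protein, had 4334 and 3584 against 5668 and 5456, and rose by 0.50 (standard error 0.13, adjusted p = 0.0388). Neither was called without the libraries labelled *Taf4a*-/- replicate 1 (adjusted p = 0.107 and 0.222) or replicate 2 (0.0586 and 0.171), nor *Cenpf* without WT replicate 2 (0.0686).

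**Figure D5:**
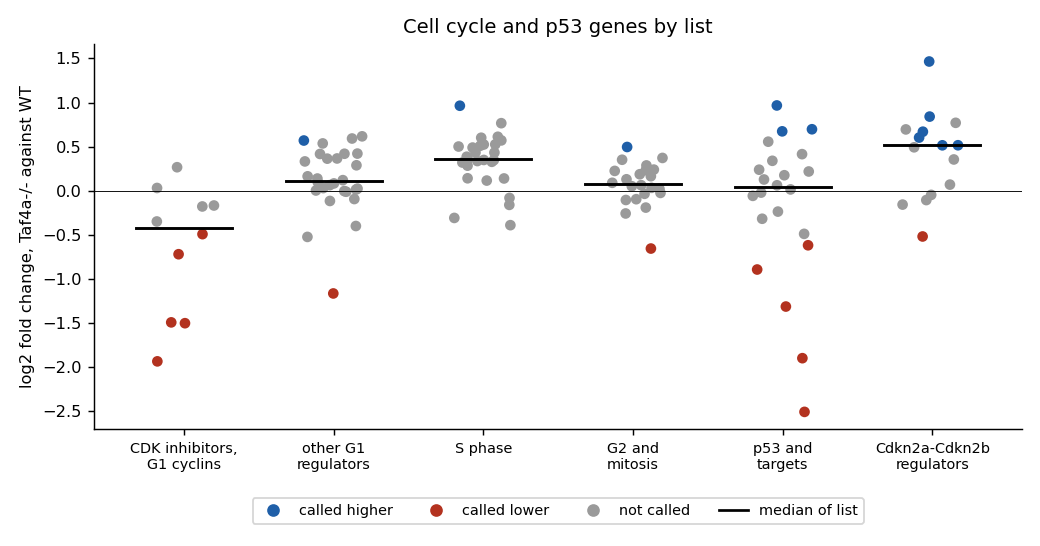
Log2 fold change of every gene in 6 lists, libraries labelled *Taf4a*-/- against WT, with blue and red for genes called higher and lower and a bar at each list's median. The bar lies at -0.42 for the 10 G1 genes and at 0.36 for the S phase genes, where 1 of 27 points is blue.

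Of p53 and its targets, 22 genes in all, 3 were higher (13.6%, beside 11.3% of all genes tested) and 5 lower (22.7%, beside 17.3%), so both shares were near those over all genes. Their median of 0.039 on the log2 scale was -0.054 without WT replicate 1. *Trp53*, the gene of p53, had 3095 and 2069.8 normalized counts in WT against 5236 and 4679, with no overlap, and rose by 0.97 (standard error 0.20, adjusted p = 0.0193 from limma). *Trp53inp1*, a p53-induced nuclear protein whose gene lies 17.0 kb from *Ccne2*, rose by 0.70 (adjusted p = 0.0373, and 0.122 and 0.111 without the libraries labelled *Taf4a*-/- replicates 1 and 2). The largest falls were in *Dram1*, a lysosomal regulator of autophagy (-2.51, standard error 0.57, adjusted p = 0.0242), and in the death receptor gene *Fas* (-1.90, standard error 0.42, adjusted p = 0.0222). *Dram1* was not called without WT replicate 1 or 2 (-2.70 and -2.31, adjusted p = 0.0858 and 0.148), and its size rested on the libraries labelled *Taf4a*-/- (-3.39 without replicate 1 and -1.63 without replicate 2). *Fas* was not called without WT replicate 2 (-1.37, adjusted p = 0.0965). *Mdm2*, itself a p53 target, had a log2 fold change of -0.057 (95% confidence interval -0.51 to 0.39, adjusted p = 0.840). Like *Cdkn1a*, *Mdm2* was higher in WT replicate 2 (4797) than in replicate 1 (3345.5), with the libraries labelled *Taf4a*-/- between them (4014 and 3694). Most of the list was higher in WT replicate 2. Of the 22 genes, 4 were lower there than in replicate 1, *Trp53* among them, and the median log2 difference was 0.37.

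Of 15 genes known as regulators of the *Cdkn2a*-*Cdkn2b* locus, 6 were higher (40.0%, beside 11.3% of all genes tested) and 1 lower (6.67%, beside 17.3%), and the median log2 fold change stood at 0.52. *Cbx7*, a Polycomb subunit that represses the locus, had 807 and 585 normalized counts in WT against 2267 and 1590.4, and rose by 1.47 (standard error 0.23, adjusted p = 0.00823 from limma). *Tbx3*, a T-box repressor of p19Arf, had 1508 and 1119 against 2604 and 2082, and rose by 0.84 (standard error 0.19, adjusted p = 0.0235). The genotypes did not overlap in either gene. The other genes called higher, named after their values were seen, were *Id1* and the Polycomb genes *Suz12*, *Bmi1* and *Eed*. *Ets2*, an activator of p16Ink4a, had 3155 and 3198 against 2068 and 2380.1, and fell by 0.52 (standard error 0.12, adjusted p = 0.0268). Without WT replicate 2 the list had 1 gene called higher and 0 lower, when 4.40% of all genes were higher and 7.22% lower, and *Cbx7* (1.23, adjusted p = 0.0599), *Tbx3* (0.63, adjusted p = 0.0891) and *Ets2* (-0.51, adjusted p = 0.0749) missed the threshold. Without the library labelled *Taf4a*-/- replicate 1 the list also had 1 gene called higher, and *Tbx3* (adjusted p = 0.0969) and *Ets2* (0.245) missed it, as did *Ets2* without replicate 2 (0.0868). Of the other 4 genes called higher, *Eed* alone was called without WT replicate 2, none without the library labelled *Taf4a*-/- replicate 1 (adjusted p = 0.135 to 0.261), and *Suz12* alone without replicate 2. Several of these genes are also expressed at high level in undifferentiated ESCs, and the part of pluripotent cells in these values was not tested.

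Apart from the 10 genes themselves, 18 protein-coding genes are their nearest neighbours, and 15 of them could be tested. Of these 3 were higher and 1 lower, beside 11.3% higher and 17.3% lower over all genes tested. The higher genes were *Trp53inp1*, *Med20* (0.56, adjusted p = 0.0248 from limma) and *9630033F20Rik* (0.60, adjusted p = 0.0463). The lower gene was *Apold1*, an endothelial gene 56.5 kb from *Cdkn1b*, with 153 and 99.7 normalized counts in WT against 39.2 and 56.4 (log2 fold change -1.38, standard error 0.35, adjusted p = 0.0337). Each of these calls was lost in at least 2 of the 4 fits without 1 library, and that of *Apold1* also with quantile normalization (-1.04, adjusted p = 0.0684). For *Cdkn2a*, *Cdkn2b*, *Cdkn2c* and *Ccnd2*, the neighbours tested outside the set were *Mtap*, *Dmrta1*, *Faf1* and *9630033F20Rik*. None was called lower, but so few genes cannot be set against the 17.3%, and *Dmrta1* was at -1.13 without overlap.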

How the data were processed

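Polyadenylated RNA was sequenced in 4 libraries of day 9 cardiac cultures, 2 WT and 2 labelled *Taf4a*-/-. Per the labels, the submitters' processing notes name CASAVA 1.8, TopHat 1.3.3, HTSeq 0.5.3p1 and DESeq, and the authors mapped reads to mm9/NCBI37. The deposited values are normalized counts of 24637 genes, each library's counts divided by a size factor. All values were whole multiples of the value of 1 read (100% within 0.001), so reads could be recovered, 21732746 to 27733034 per library. Replicate numbers were taken as names only, since no text pairs them and same-numbered libraries did not deviate together (correlation 0.012).

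Genes averaging 10 or more normalized counts (16926) were compared between genotypes in limma 3.58.1 under R 4.3.3, by lmFit and trended eBayes, after log2(value + 1) transformation, which shrinks the changes of low genes. P-values were adjusted over all of them by the Benjamini-Hochberg method and called under 0.05. The fit was tested on simulated data. Levels per kb used the merged exons of the NCBIM37 annotation, and upstream sequences came from RefSeq. Figures were drawn with matplotlib 3.10.9 in Python 3.11.15.

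The 10 genes and the lists were chosen with earlier results of these data known. The text names all 10, *Taf4a* and fixed partners (*Cdk2*, *Cdk4*, *Cdk6*, *Cdkn1c*, *Cdkn2d*, *Rb1*, *Rbl1*, *Rbl2*, *Trp53*, *Mdm2*). From each list it names up to 2 called genes in each direction with the largest changes and no overlap. Of the overlapping genes and nearest protein-coding neighbours, it names every called one but only some of the others. The choice among these neighbours thus partly followed the results. The alternatives were another pseudocount, filters, scalings, no variance trend, a replicate block, leaving out each library and, added after the data were seen, limma voom on the recovered reads and *Ccnd3* summed with its copy.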

Additional observations from a re-analysis of the deposited data

How the results depend on the processing

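The depth was 27 to 17415 reads behind each value of the 10 genes, and 22 to 35 for *Cdkn2d*, which is outside the set. It limits mainly *Cdkn2c* and *Cdkn2d*, and intervals rest on 2 libraries per genotype. Fits with 1 library in a genotype assume that it varies like the other genotype's. The edgeR and DESeq2 tests planned as alternatives were not run. In the other settings, 113 values of counts and shares and 495 of medians and single genes held. A count held if it stayed near the main count, even where single calls changed. A share or median held if it moved by less than the spread between libraries of a genotype. A single gene held if it kept its direction and its side of the threshold. Of counts and shares, 30 were weaker, 8 stronger and 9 moved. Of medians and single genes, 85 were weaker, 3 stronger, 15 reversed and 14 moved. The cause of the changes below was not tested.

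The replicate number as a block left 4 of the 10 genes lower (1536 higher and 2657 lower over all genes), gave 2 other G1 regulators and 0 G2 and mitosis genes higher, and its pairing has no source in the labels. With no variance trend, 1 of the 10 genes was lower, *Cdkn2c*. Under that setting 0 other G1 regulators, 0 S phase genes, 0 G2 and mitosis genes and 0 p53 genes were higher, 0 p53 genes and 0 G2 and mitosis genes were lower, and 1 locus regulator was higher and 0 lower (856 higher and 1741 lower over all genes). Voom called 3 of the 10 lower (2134 higher and 2580 lower over all genes). S phase genes called higher were 2 with pseudocount 10, equal totals, quantile normalization and voom. Over all genes these settings called 11.7% to 15.8% higher.

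With 1 library left out, between 1 and 6 of the 10 genes were lower and 0 higher, while over all genes 7.22% to 17.9% were lower and 3.69% to 14.6% higher. Other G1 regulators called higher ran from 0 to 8 and lower were 1 throughout, and S phase genes higher ran from 0 to 17. G2 and mitosis genes ran from 0 to 3 higher and 0 to 1 lower, p53 and its targets from 1 to 3 higher and 1 to 6 lower, and locus regulators from 1 to 8 higher and 0 to 1 lower.

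Directions turned for genes that were not called. With 1 library left out, *Cdkn1a* ran from -0.61 to 0.25, *Cdk4* from -0.016 to 0.21, *Cdk6* from -0.14 to 0.27, *Cdkn2d* from -0.18 to 0.23, *Rb1* from -0.31 to 0.13, *Mdm2* from -0.32 to 0.20, *Cdkn1c* from -0.10 to 1.34, *Mtap* from -0.011 to 0.048 and *Faf1* from -0.044 to 0.14. The p53 median ran from -0.054 to 0.21 and the G2 and mitosis median from -0.035 to 0.20. *Rb1* was 0.0098 with quantile normalization, and *Mdm2* was 0.0027 with equal totals and 0.0029 with voom.

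Not divided by exon length, *Ccnd2* made up 63.6% (WT) and 53.7% (labelled *Taf4a*-/-) of D cyclin counts (44.3% and 35.7% per kb), and *Ccnd3* 24.9% and 27.4% (43.9% and 45.7%). Of INK4 counts, *Cdkn2a* then made up 46.9% in both (53.2% and 52.4%), *Cdkn2c* 8.79% and 6.01% (4.37% and 2.93%), and *Cdkn2b* 42.7% in the libraries labelled *Taf4a*-/- (40.1%).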
